A study of Mus musculus with 40 samples.

Results

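The sites taken by the NF-kB subunit p65 and by PU.1 in mouse peritoneal macrophages stimulated for 1 hr were compared. The members were 6 ChIP-Seq peak lists among the 40 samples of the series, namely 4 of p65 (2 replicates from C57BL6/J and 2 from BALBc/J mice) and 2 of PU.1 (1 from each strain). Macrophages elicited with thioglycollate were plated overnight and given Kdo2-lipid A (KLA), a purified agonist of Toll-like receptor 4, at 100 ng/ml for 1 hr. The same strains also gave the GRO-Seq and RNA-Seq libraries after KLA and without treatment, and the C/EBPa and H3K27Ac lists used below. Neither strain carried an engineered allele in the labels. A locus joined peaks whose centres lay within 100 bp of the next. A p65 locus had a peak in all 4 p65 lists and a PU.1 locus a peak in both PU.1 lists. Of 125714 loci with a peak in any of the 6 lists, 36575 were p65 loci and 54193 were PU.1 loci. There were 18559 loci of both factors. A further 13761 were p65 alone, with no PU.1 peak in either list, 23816 were PU.1 alone, with no p65 peak in any list, and the other 69578 were found in only some of the lists of a factor.

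NF-kB waits in the cytoplasm of resting cells, held by inhibitors of the IkB family, and enters the nucleus once Toll-like receptor signalling removes them. Its p65 subunit (RelA, gene Rela) carries the activation domain and binds kB sites beside cytokine, chemokine and feedback inhibitor genes. PU.1 (gene Sfpi1) is an ETS-family factor that macrophages express at all times and that occupies promoters and enhancers already before stimulation. C/EBPa is a further lineage factor of these cells, and acetylation of histone H3 at lysine 27 (H3K27Ac) marks active promoters and enhancers.

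To show the letters under some of the loci named below, 7 stretches of RefSeq promoter sequence (build GRCm38.p6) with a recognition sequence of a factor are given. Each runs 5′ to 3′ along the gene's strand and ends at the base before the transcription start. Capitals mark a match to the kB consensus, to the PU.1 core AGGAAGT or to the AP-1 motif TGANTCA, searched on both strands in the whole promoter window of 250 bases before to 50 bases after the start. The stretches of the chemokine genes Cxcl1 (chr5:90891095-90891244 (plus strand)) and Cxcl3 (chr5:90785951-90786100 (plus strand)) stood at p65-alone loci and each held 2 overlapping kB matches. That of Gbp5 (chr3:142496784-142496933 (plus strand)), an interferon-inducible GTPase gene, held 1 kB match at a locus of both factors. That of Irg1 (chr14:103046862-103047011 (plus strand), listed as Acod1 in RefSeq), the itaconate-producing enzyme, was p65 alone and yet held the PU.1 core. Those of Tnf (chr17:35202008-35202157 (minus strand)), the cytokine gene at a locus of both factors, and of Rab32 (chr10:10558208-10558357 (minus strand)), a small GTPase gene at a PU.1-alone locus, also held the PU.1 core. That of Olr1 (chr6:129507166-129507315 (minus strand)), a receptor for oxidised lipoprotein, held an AP-1 match at a locus with far more p65 than PU.1 tags.
Cxcl1: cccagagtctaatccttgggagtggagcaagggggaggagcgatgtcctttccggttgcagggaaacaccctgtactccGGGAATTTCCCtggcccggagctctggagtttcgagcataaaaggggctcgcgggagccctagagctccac
Cxcl3: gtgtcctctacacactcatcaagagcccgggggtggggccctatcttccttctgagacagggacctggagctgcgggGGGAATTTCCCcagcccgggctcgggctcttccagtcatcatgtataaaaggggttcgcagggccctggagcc
Gbp5: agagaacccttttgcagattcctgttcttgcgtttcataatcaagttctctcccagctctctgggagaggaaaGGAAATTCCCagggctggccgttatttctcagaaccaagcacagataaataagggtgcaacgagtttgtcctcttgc
Irg1: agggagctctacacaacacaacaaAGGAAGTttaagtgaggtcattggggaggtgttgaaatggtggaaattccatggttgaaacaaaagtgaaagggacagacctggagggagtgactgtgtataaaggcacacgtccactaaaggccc
Tnf: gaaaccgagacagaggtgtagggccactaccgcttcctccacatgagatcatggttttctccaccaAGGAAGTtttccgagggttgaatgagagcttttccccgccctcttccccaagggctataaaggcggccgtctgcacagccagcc
Rab32: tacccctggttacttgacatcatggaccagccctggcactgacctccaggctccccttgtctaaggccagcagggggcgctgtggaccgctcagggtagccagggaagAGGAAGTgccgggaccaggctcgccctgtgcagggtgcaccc
Olr1: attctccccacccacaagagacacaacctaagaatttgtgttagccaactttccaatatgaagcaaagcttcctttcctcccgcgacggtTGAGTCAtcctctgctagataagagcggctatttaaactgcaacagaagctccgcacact

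Counted from the start, the kB matches lay at positions -71 to -62 and -70 to -61 in Cxcl1, at -73 to -64 and -72 to -63 in Cxcl3, and at -77 to -68 in Gbp5. The PU.1 core lay at -126 to -120 in Irg1, at -84 to -78 in Tnf and at -42 to -36 in Rab32, and the AP-1 match at -60 to -54 in Olr1. Over the genes with a single RefSeq start, the kB consensus was found in 9.98% of promoters with a p65-alone locus (44 of 441), 7.90% of those with a locus of both factors (112 of 1418) and 3.06% of those with a PU.1-alone locus (55 of 1799). All promoters of the table held it in 4.61%. The PU.1 core was in 7.71% of p65-alone promoters, 16.6% of promoters of both factors and 10.8% of PU.1-alone promoters, beside 9.57% of all promoters. AP-1 was in 6.12%, 7.97% and 4.11% of them in the same order, beside 7.38% of all promoters. Where the centre of the locus itself fell inside the promoter window, a set chosen after the values were seen, the kB shares were 16.1%, 9.62% and 3.26% and the PU.1 core shares 4.40%, 21.2% and 16.5%. The kB share was highest in p65-alone and lowest in PU.1-alone promoters, and the PU.1 core share was lowest in p65-alone promoters. These matches describe letters in a window and were not tested.

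The p65 lists held 47616 to 60505 peaks from 10.0 to 14.4 M mapped tags, of which 36.8% to 53.3% fell in peaks, and the PU.1 lists 69318 and 71158 peaks from 7.8 and 8.2 M tags, with 34.9% to 35.4% in peaks. Every ChIP value below is in tags per 10 M mapped tags of the library. The lowest value listed was 10.0 to 10.5 in the p65 lists and 11.5 (C57BL6/J) and 11.1 (BALBc/J) in the PU.1 lists. This floor bounds how far the tags of 1 factor can fall at a shared locus. The factors differ in their preparation too: p65 cells were crosslinked with disuccinimidyl glutarate and then formaldehyde, PU.1 cells with formaldehyde only, so factor and crosslinking cannot be told apart. The headers name the C57BL6/J input as the control of the BALBc/J p65 lists too, and the part of this in the strain values was not tested. Whether replicates are separate animals is not stated in the labels, so a p-value reflects the spread of these libraries alone, which may be technical. Of the marker lists of other cells few genes passed the filter on low values in GRO-Seq. Tested there were 1 T and NK cell, 1 neutrophil, 1 dendritic cell and 2 mesothelial and fibroblast markers. No B cell, eosinophil or mast cell marker was tested there. RNA-Seq tested all 8 mesothelial and fibroblast markers, with 2 B cell, 2 eosinophil and mast cell, 2 dendritic cell and 1 neutrophil marker. None of these was called changed after KLA in either assay. Unfiltered, 1 of 4 dendritic cell markers was called higher in GRO-Seq. The part of other cells in the results was not tested.

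The p65 lists held a smaller share of peaks near gene starts than the PU.1 lists. Peaks within 1 kb of a transcription start made up 14.1% and 15.0% of the C57BL6/J and 12.6% and 13.1% of the BALBc/J p65 lists, against 16.3% (C57BL6/J) and 15.9% (BALBc/J) of the PU.1 lists. Every p65 list was below both PU.1 lists. The means were 13.7% ± 1.07 for p65 (SD, n = 4) and 16.1% ± 0.276 for PU.1 (SD, n = 2), a difference of -2.38 percentage points (two-sided exact permutation test, p = 0.133, adjusted p = 0.133 over 2 tests). With 4 lists against 2 there are 15 arrangements and 0.133 is the smallest p that the design allows, so a threshold of 0.05 could not be reached. Among the 20000 peaks with the most tags in each list the gap was larger, with 11.9% ± 1.44 of p65 peaks and 18.7% ± 0.24 of PU.1 peaks near a start. The median distance to a start was 17739 to 18962 bp in the p65 lists and 16315 and 16840 bp in the PU.1 lists, also without overlap and with the same p. When only starts of genes tested in GRO-Seq were used the 2 factors differed by 853 bp, with p = 0.533 in the same exact permutation test.

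The location also differed between the locus classes. Loci within 1 kb of a start made up 10.9% of p65-alone loci (1502), 13.4% of loci of both factors (2481) and 16.6% of PU.1-alone loci (3945). Of these promoter loci, 59.5% of the p65-alone, 69.2% of the shared and 50.2% of the PU.1-alone ones were centred upstream of the start. By decile of tags the promoter share of p65 loci was 10.4% in the weakest, highest at 15.1% in the fourth and 10.3% in the top decile. That of PU.1 loci was 8.56% in the weakest, highest at 20.4% in the eighth and 15.9% in the top decile.

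**Figure D1:**
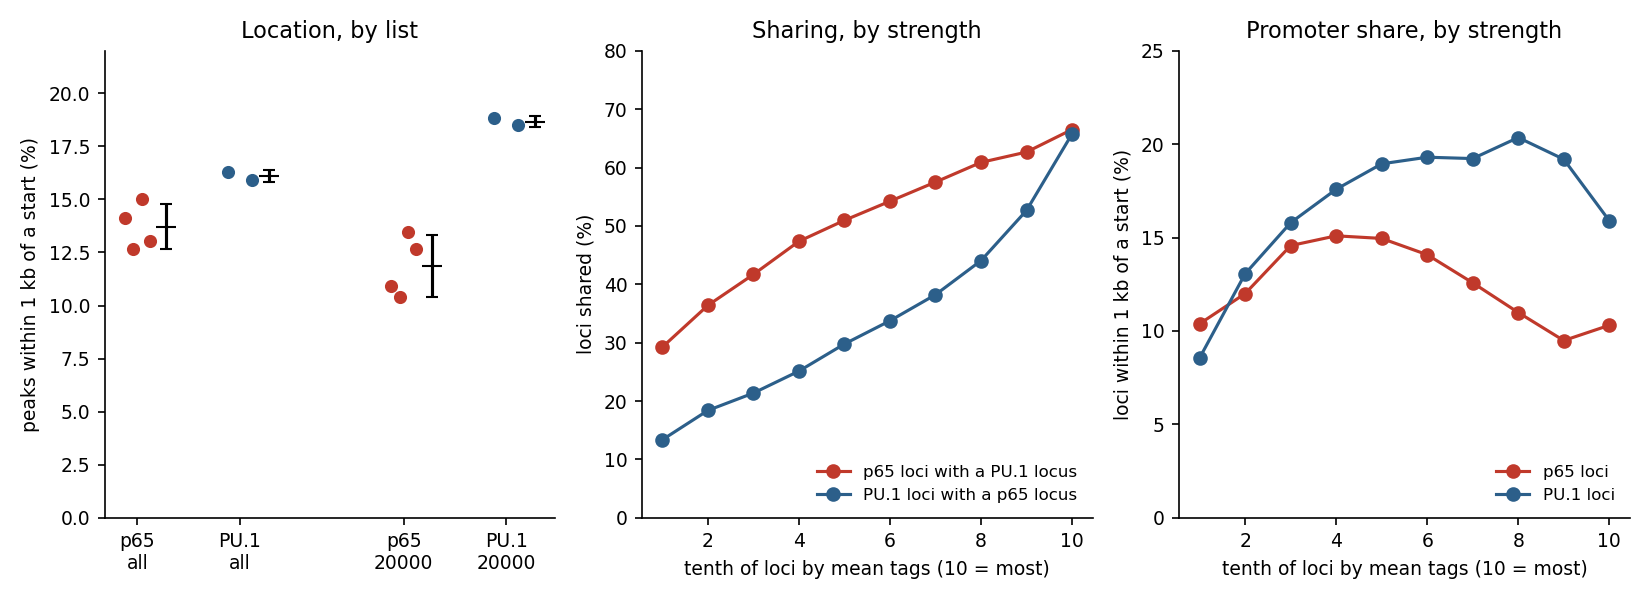
Left, percent of peaks within 1 kb of a start in each list (points; mean ± SD beside them) for all peaks and for the 20000 with the most tags. Middle and right, percent of loci shared with the other factor and percent within 1 kb of a start, by decile of mean tags. Sharing goes up to 66.5% of p65 loci and 65.7% of PU.1 loci in the top decile.

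Sharing went up with strength for both factors. Loci of both factors made up 50.7% of p65 loci and 34.2% of PU.1 loci. From the weakest to the strongest decile, p65 loci with a PU.1 locus went up from 29.3% to 66.5%, and PU.1 loci with a p65 locus from 13.4% to 65.7%. In the top decile the median locus had 373 tags for p65 and 201.5 tags for PU.1. The share itself depends on how wide a gap joins peaks: at the promoter of Nfkbia, the gene of the inhibitor IkBa, the p65 locus and the PU.1 locus had centres 204 bp apart and counted as separate loci.

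Within each list, loci of both factors had more tags than loci of that factor alone. The median p65 tag count was 89.8 and 83.7 at shared loci of the C57BL6/J lists and 78.0 and 55.6 in the BALBc/J lists, against 48.0 and 52.1, and 43.0 and 37.9, at p65-alone loci of the same lists. The ratio was 1.87 and 1.61 in C57BL6/J and 1.81 and 1.47 in BALBc/J. For PU.1 the medians were 70.9 and 71.4 at shared loci and 33.0 and 33.3 at PU.1-alone loci, ratios of 2.15 and 2.14. Near starts the p65 ratio came close to 1. Within 1 kb of a start it was 1.04 to 1.20 in the 4 p65 lists, and beyond 1 kb it was 1.54 to 2.03. The PU.1 ratios were 1.59 and 1.62 within 1 kb and 2.25 and 2.27 beyond it.

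Where both factors were present their tag counts were only loosely related. Across the 18559 shared loci the Pearson correlation of log2 tags was 0.878 to 0.934 between p65 lists and 0.932 between the PU.1 lists, but 0.274 to 0.385 between a p65 and a PU.1 list. These correlations are across loci and describe these libraries. The balance of the factors at each shared locus was then fitted with limma on log2 tags centred on each list's median, with strain as a term. It was called at a Benjamini-Hochberg adjusted p under 0.05 and a difference of at least 1 on the log2 scale. By that rule 26.3% of shared loci (4876) stood towards p65 and 23.1% (4289) towards PU.1. The median locus of the first set had 186 p65 and 44.5 PU.1 tags, and that of the second 39.5 p65 and 127 PU.1 tags.

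**Figure D2:**
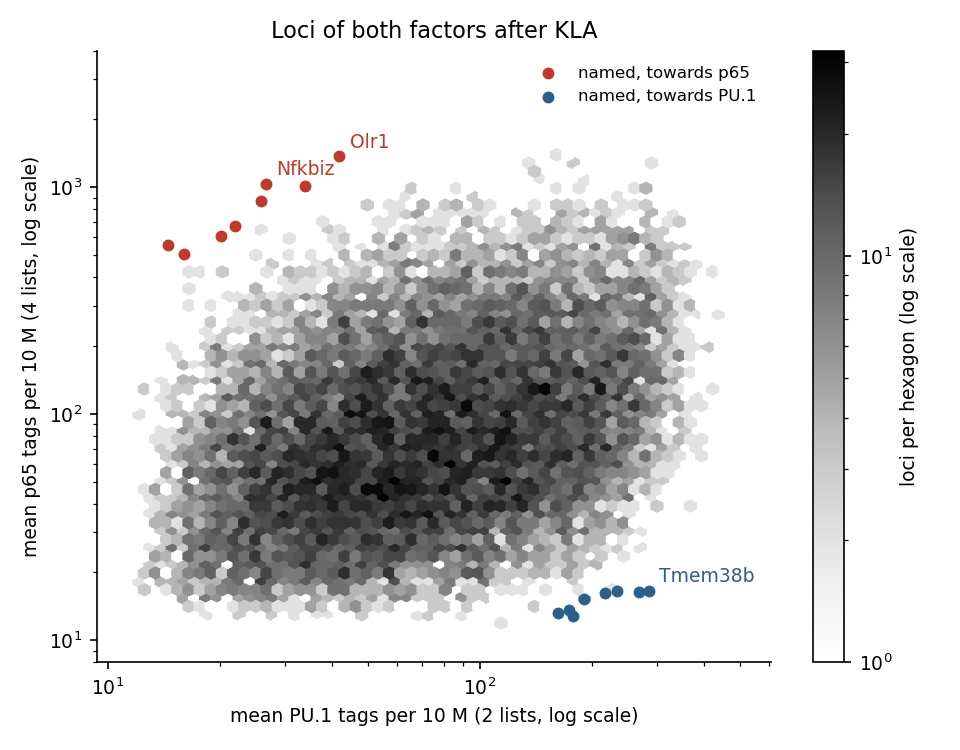
Mean PU.1 tags per 10 M (x, log scale) against mean p65 tags per 10 M (y, log scale) at the 18559 loci of both factors, shaded by the number of loci per hexagon. Coloured points are the 8 loci with the largest balance towards each factor: those towards p65 had 505 to 1371 p65 tags and 14.6 to 41.9 PU.1 tags.

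The largest balance towards p65 was at the gene of an NF-kB feedback regulator. The locus at -225 bp from a start of Nfkbiz, which encodes the nuclear inhibitor-like protein IkBzeta (mm9 chr16:55838880-55839079), had 896 and 1248 p65 tags in C57BL6/J and 1002 and 1007 in BALBc/J, against 23.1 and 30.2 PU.1 tags in C57BL6/J and BALBc/J. The p65 and PU.1 values did not overlap, and the centred log2 balance was 5.20 ± 0.24 (SE, adjusted p = 8.1e-07). Olr1 had its locus at -98 bp from the start (mm9 chr6:129457182-129457381), with 1084 and 1605 p65 tags in C57BL6/J and 1295 and 1498 in BALBc/J, against 34.6 and 49.2 PU.1 tags, a balance of 4.95 ± 0.27. Both genes rose in GRO-Seq after KLA, by 3.37 ± 0.30 and 3.64 ± 0.36 on the log2 scale. Rab32 held both extremes: 11394 bp inside the gene a locus had 378 to 613 p65 tags and 11.5 and 20.6 PU.1 tags (balance 4.93 ± 0.24), whereas its promoter locus, at -33 bp, was PU.1 alone with 388 and 397 tags. The other 5 loci towards p65 were nearest to Hbp1, Snx27, Metap1, Slc37a3 and Siglecg, with balances of 4.80 to 5.16. Of the 7 nearest genes with a GRO-Seq test, 3 were called higher (Nfkbiz, Olr1 and Rab32) and 2 lower (Snx27 at -1.15 ± 0.32 and Slc37a3 at -1.16 ± 0.36), where 4.31% of all genes tested were called higher and 15.5% lower by the same rule of adjusted p and size. With centred libraries these 2 falls were -0.80 and -0.81 and no longer called, and the call of Rab32 was lost without the untreated C57BL6/J library (1.04).

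The largest balance towards PU.1 was at a locus 34173 bp from the start of Tmem38b, which encodes an intracellular cation channel. It had 17.4 and 13.4 p65 tags in C57BL6/J and 17.0 and 18.5 in BALBc/J, against 288.6 and 281 PU.1 tags, and a balance of -4.20 ± 0.29. A locus at 1 of 2 starts of Rcan1, an inhibitor of the phosphatase calcineurin, came next: at -234 bp from that start (mm9 chr16:92466526-92466725) the p65 lists held 19.5 and 14.2 tags in C57BL6/J and 19.0 and 12.9 in BALBc/J, and the PU.1 lists 268.8 and 268.3 (balance -4.14 ± 0.26). At -143 bp from the other start a p65-alone locus had 304.8 and 231.4 p65 tags in C57BL6/J and 226.1 and 156.3 in BALBc/J. PU.1 was listed near that start too, in a PU.1-alone locus at 31 bp with 41.2 (C57BL6/J) and 30.2 (BALBc/J) tags. Rcan1 as a whole rose by 1.76 ± 0.35 in GRO-Seq and 2.02 ± 0.25 in RNA-Seq, a change that the counts do not assign to either start. The other 6 loci, nearest to Tekt3, Rasa1, Fam203a, 1810053B23Rik, Alx4 and Galnt6, had balances of -3.95 to -3.77. Rcan1 was the 1 called higher among the 4 nearest genes tested in GRO-Seq, and Rasa1 the 1 called lower, a call lost with centred libraries (-0.67). The RNA-Seq call of Rcan1 was lost when any 1 of the 4 libraries was left out, with values of 1.99 to 2.05.

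**Figure D3:**
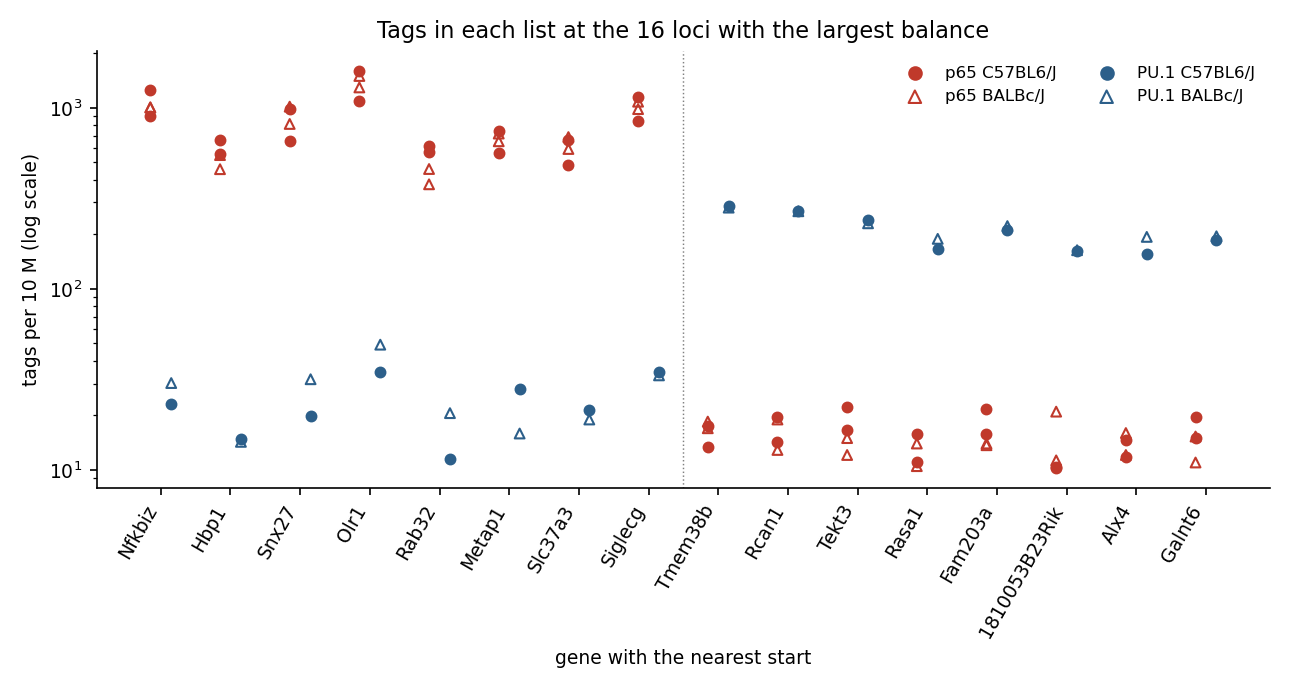
Tags per 10 M (log scale) in each of the 6 lists at the 8 loci with the largest balance towards p65 (left of the dotted line) and towards PU.1 (right), by nearest gene. Circles are C57BL6/J and triangles BALBc/J. At each of the 16 loci the p65 and PU.1 values do not overlap.

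The strongest loci differed in kind between the factors. The 5 p65-alone loci with the most tags were nearest to Tnip1 (a partner of the deubiquitinase A20), Pde4b (a cyclic AMP phosphodiesterase), Mapkapk2 (the kinase MK2), Nlrp3 (the inflammasome sensor) and Slc25a37 (a mitochondrial iron carrier). All 5 genes were called higher in GRO-Seq, by 1.82 to 3.47 on the log2 scale. RNA-Seq called Pde4b (2.86 ± 0.16) and Nlrp3 (3.49 ± 0.17) higher, but not Tnip1 (0.53), Mapkapk2 (0.66) or Slc25a37 (0.04). The Nlrp3 locus, at -1232 bp, had 1256 and 1626 tags in C57BL6/J and 1428 and 1452 in BALBc/J. The Slc25a37 locus was higher in both C57BL6/J lists, with 1791 and 2082 tags in C57BL6/J and 920 and 887 in BALBc/J. The shared loci with the most p65 tags were nearest to Ccdc88b, Sod2, Cxcl16, Gm4832 and Aoah. That of Sod2, mitochondrial superoxide dismutase, lay 2408 bp inside the gene and had 1356 and 2191 p65 tags in C57BL6/J and 1581 and 2028 in BALBc/J, against 145 and 170 PU.1 tags. By contrast the PU.1-alone loci with the most tags were nearest to Gm9041, Abr, Rab32, Cd302 and Maml2, of which only Rab32 was called in GRO-Seq (1.39 ± 0.34). The shared loci with the most PU.1 tags were nearest to Rmi1, Ptpn1, Dnmt3a, 9830001H06Rik and Il6ra. None of the 5 genes nearest to these shared loci was called higher. Dnmt3a, a DNA methyltransferase, was called lower by -2.34 ± 0.27 and the receptor gene Il6ra by -1.27 ± 0.36, a call lost with centred libraries (-0.92). The GRO-Seq calls of Ccdc88b (1.19) and Cxcl16 (1.53) were each lost without 1 untreated library, and RNA-Seq called neither (-0.08 and 0.77).

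The other factor lists were then set against the classes. A PU.1 peak was listed without treatment at 9.38% (C57BL6/J) and 9.59% (BALBc/J) of p65-alone loci, at 81.4% and 82.7% of shared loci and at 85.5% and 87.0% of PU.1-alone loci. The p65-alone class is defined by the lack of a PU.1 peak after KLA, so a low share there is partly built in. Within 500 bp of the centre the p65-alone shares were 25.8% and 26.2%, and 50.0% and 49.5% for those within 1 kb of a start. C/EBPa was the reverse for the single classes. After KLA a C/EBPa peak overlapped 52.7% (C57BL6/J) and 52.6% (BALBc/J) of p65-alone loci, 68.9% and 69.6% of shared loci, and 12.4% and 13.0% of PU.1-alone loci. Without treatment the same shares were 27.2% and 30.7% at p65-alone loci, 56.6% and 61.2% at shared loci, and 15.4% and 18.4% at PU.1-alone loci. The C/EBPa lists held 46733 and 47995 peaks after KLA and 40060 and 48147 without treatment, so in BALBc/J the p65-alone share was higher after KLA in a list of nearly the same length.

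**Figure D4:**
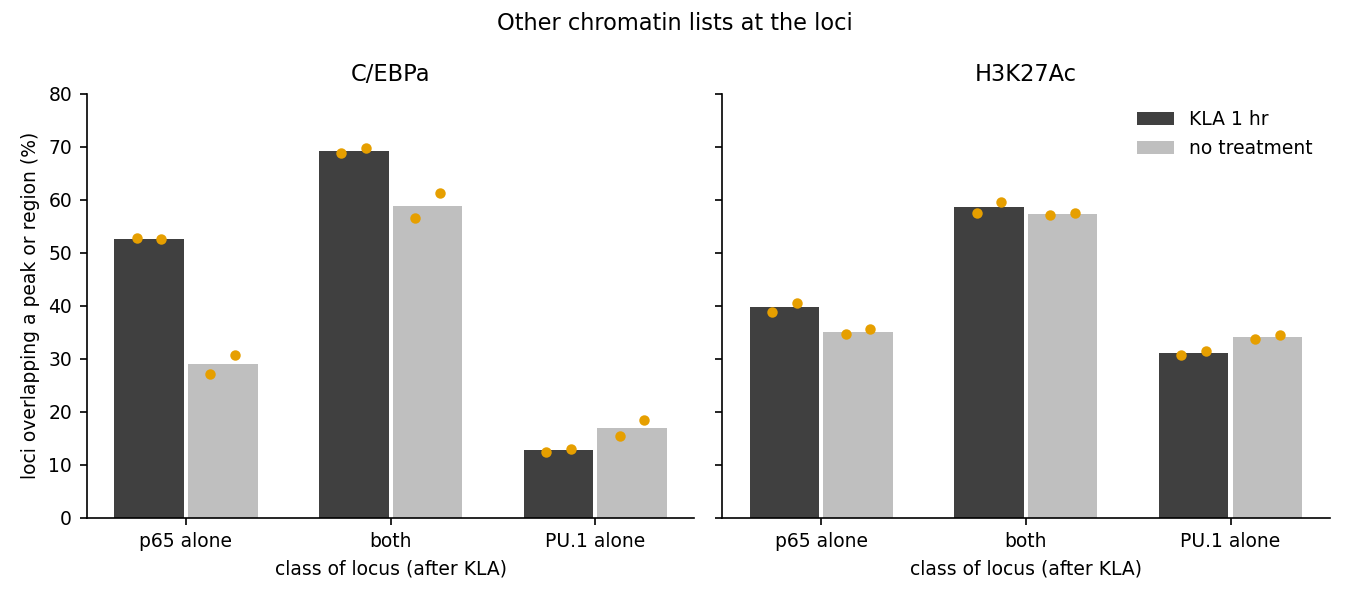
Percent of loci that overlap a C/EBPa peak (left) or an H3K27Ac region (right), by class of locus, after KLA and without treatment. Bars are the mean of the C57BL6/J and BALBc/J lists (points). C/EBPa overlap of p65-alone loci is near 52.7% after KLA and 27.2% to 30.7% without treatment.

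An H3K27Ac region covered 38.9% (C57BL6/J) and 40.6% (BALBc/J) of p65-alone loci after KLA and 34.7% and 35.5% without treatment. At PU.1-alone loci it covered 30.7% and 31.5% after KLA and 33.8% and 34.5% without treatment. The H3K27Ac regions spanned 51.84 and 52.97 Mb after KLA and 56.66 and 57.5 Mb without treatment, so they covered less of the genome after KLA in both strains, as they did of PU.1-alone loci, while they covered more of p65-alone loci. Shared loci had the highest cover, 57.5% and 59.6% after KLA and 57.05% and 57.6% without treatment. Loci in an H3K27Ac region of both strains after KLA and of neither without treatment were 5.89% of p65-alone, 6.93% of shared and 2.41% of PU.1-alone loci. The converse, a region only without treatment, held for 2.90%, 5.57% and 3.80% of them. Among the shared loci, those towards p65 were covered at 70.6% and 73.4% after KLA and 52.5% and 53.5% without treatment, whereas loci towards PU.1 were covered at 47.5% and 49.1% after KLA and 62.8% and 63.6% without treatment. An untreated PU.1 peak was listed at 59.3% and 61.0% of loci towards p65 and at 98.6% and 98.9% of loci towards PU.1. Loci were placed in these sets in part by their PU.1 tags after KLA, so this difference is partly built in. There is 1 list per strain and treatment, so these shares carry no test, and each pair gives C57BL6/J before BALBc/J.

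A larger share of genes near p65 loci than of genes near PU.1 loci only was called higher after 1 hr of KLA. The shares are descriptions with no test of their difference, since genes are not replicates. Each locus was given to the nearest start within 100 kb. Nascent transcription (GRO-Seq) was fitted with limma on log2(tags per 10 M + 10) over 9110 genes, and 4.31% of all genes tested were called higher (393) and 15.5% lower (1410). Of genes with a p65 locus 5.79% were called higher (362 of 6254), against 0.844% of genes with PU.1 loci only (17 of 2015) and 1.66% of genes with neither (14 of 841). The calls lower were 15.6%, 14.9% and 15.8% in the same order. In RNA-Seq 1.82% of the 10692 genes tested were called higher (195) and 1.43% lower (153), with 2.64% higher among genes with a p65 locus (189 of 7153), 0.165% among genes with PU.1 loci only (4 of 2431) and 0.181% among genes with neither (2 of 1108). Its calls lower were 1.08%, 2.26% and 1.90% in the same order. Many genes with a p65 locus had PU.1 loci too, and in GRO-Seq 6.73% of genes with a shared locus were called higher (329 of 4885). With p65-alone loci but no shared or PU.1-alone locus it was 1.28% (4 of 313), close to 1.04% with PU.1-alone loci but no shared or p65-alone one (16 of 1536). In RNA-Seq these last 2 shares were 1.02% (4 of 391) and 0.160% (3 of 1872). The nearest gene need not be the gene that a locus acts on, and no source used here states whether the counting used strand. The median gene moved by -0.34 in GRO-Seq and -0.21 in RNA-Seq on the log2 scale. With each library centred on its median the calls became 618 higher and 645 lower in GRO-Seq, so that 48.9% of calls were higher against 21.8% uncentred. In RNA-Seq they became 241 higher and 78 lower, 75.6% against 56.0%. Expression fits with 1 library left out also had no strain term. Without the untreated C57BL6/J library GRO-Seq called 216 higher and 148 lower, without the untreated BALBc/J library 218 and 232, and without the BALBc/J KLA library 279 and 2195. RNA-Seq called 62 to 77 higher and 0 to 2 lower whichever of its 4 libraries was left out. The share called higher was larger with a p65 locus than with PU.1 loci only in 13 of 13 settings of each assay.

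The share of genes called higher climbed with the number of p65 loci. Among genes with 0, 1, 2, 3 to 5, 6 to 9 and 10 or more p65 loci it was 1.09%, 1.57%, 3.37%, 6.28%, 14.0% and 17.1% in GRO-Seq. In RNA-Seq it was 0.170%, 0.589%, 1.41%, 3.42%, 5.85% and 8.99%. The GRO-Seq share also climbed with the number of PU.1 loci over all genes, at 1.77%, 1.25%, 2.06%, 4.73%, 9.01% and 14.0% for the same numbers, and many of these genes had p65 loci too. Among genes without a p65 locus, of which few had many PU.1 loci, 1.66%, 0.907%, 0.750%, 0.803% and 0% (0 of 20 genes) were called higher with 0, 1, 2, 3 to 5 and 6 to 9 of them. The share also went up with strength: 18.0% of genes in the top quartile by their strongest p65 locus were called higher (282 of 1564) and 0.575% in the lowest quartile. By their strongest PU.1 locus the shares were 10.3% (206 of 2009) in the top and 1.49% in the lowest quartile, with genes that also had p65 loci included.

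**Figure D5:**
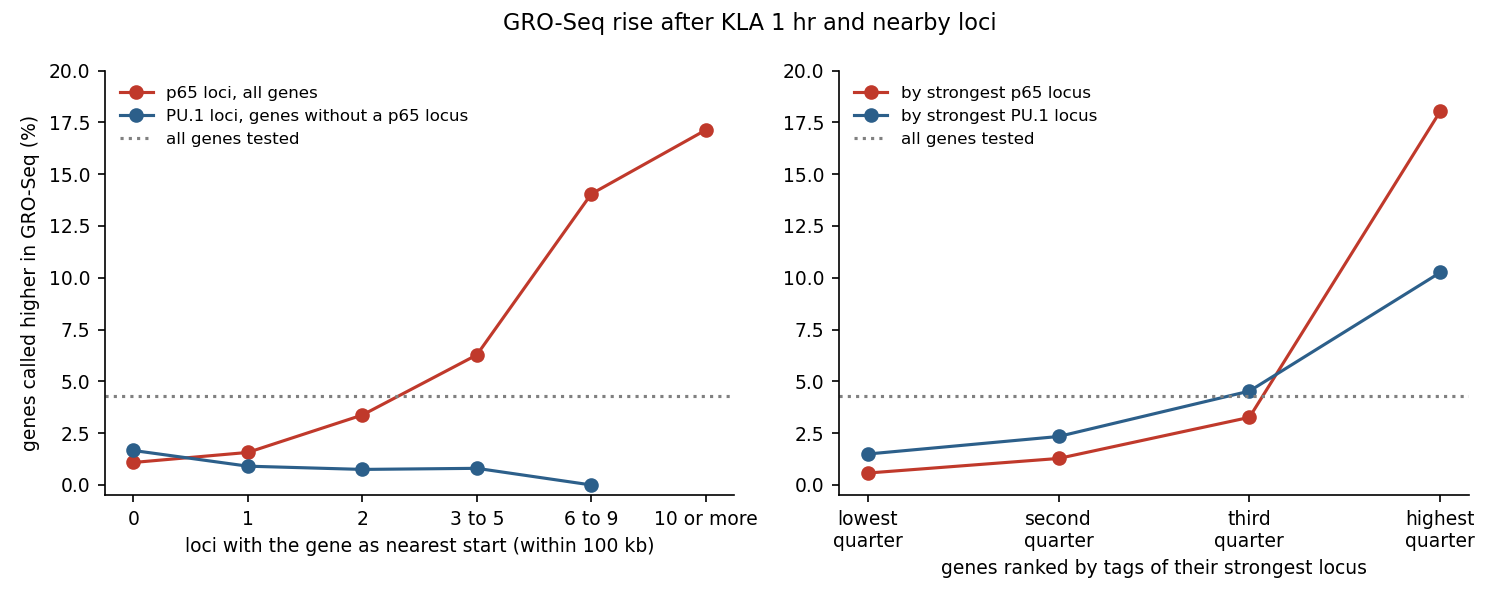
Percent of tested genes called higher in GRO-Seq after KLA, by number of nearby loci (left) and by quartile of the tags of the gene's strongest locus (right). The dotted line is all genes tested, 4.31%. Shares climb to 17.1% with 10 or more p65 loci, while genes with 1 or more PU.1 loci and no p65 locus, few of which had many, stay at or under 0.907%.

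At promoters the share called higher was larger with a p65-alone or shared locus than with PU.1 alone or no locus. It was not larger where 1 factor was complete and the other listed in part. Among genes with a locus within 1 kb of the start, GRO-Seq was called higher for 9.02% with p65 alone (44 of 488), 7.50% with a locus of both factors (141 of 1879), 6.62% with a separate locus of each (30 of 453) and 2.29% with PU.1 alone (43 of 1879), beside 1.93% of genes whose promoter loci were complete for 1 factor and listed in part for the other (33 of 1707) and 3.77% of genes with no promoter locus (102 of 2704). Calls lower were 13.1%, 13.1%, 13.5%, 16.9%, 12.8% and 18.6% in the same order. In RNA-Seq the classes with p65 stood in another order. Called higher were 2.47% with p65 alone (14 of 566), 4.25% with a shared locus (88 of 2071) and 5.02% with separate loci (25 of 498). With PU.1 alone it was 0.633% (14 of 2213), with a partly listed factor 0.965% (19 of 1969) and with no promoter locus 1.04% (35 of 3375). A single factor's class leaves out genes with a shared locus there, but may hold a locus of the other factor seen in only some lists of the first. Away from promoters 7.54% of genes with a distal locus of both factors were called higher (298 of 3952). Among genes with no shared distal locus the share was 4.20% with separate p65-alone and PU.1-alone loci (24 of 571). It was 2.54% with p65-alone loci and no PU.1-alone one (10 of 394), and 2.04% with the converse (26 of 1275). Genes whose distal loci were complete for 1 factor and listed in part for the other had 0.922% (4 of 434). Those with no distal locus had 1.25% (31 of 2484). Counted over all genes by their number of p65-alone loci, whatever else they had, the GRO-Seq shares were 1.77%, 4.07%, 8.20%, 13.8%, 15.9% and 23.8% (5 of 21) with 0, 1, 2, 3 to 5, 6 to 9 and 10 or more. In RNA-Seq they were 0.646%, 1.67%, 4.03%, 6.42%, 9.82% and 0% (0 of 21). By number of PU.1-alone loci the shares climbed as well. They were 1.94%, 3.23%, 4.70%, 8.56%, 14.1% and 15.4% (8 of 52) in GRO-Seq for the same numbers. The RNA-Seq shares were 0.837%, 1.59%, 1.81%, 3.55%, 6.32% and 5.66% (3 of 53). Nearest genes of shared loci towards p65 were called higher in 13.0% and those of loci towards PU.1 in 5.74%.

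The genes with the largest GRO-Seq changes were then taken from each promoter class. With both factors at the promoter the largest rises were of Il1b, Gbp5, Tnfsf9, Ptgs2, Tnf and Ccl5, which encode cytokines, a GTPase and cyclooxygenase-2. All but Tnf had under 20 GRO-Seq tags per 10 M in both untreated libraries, so the direction of their change is partly built in. Il1b, the gene of interleukin-1 beta, had 1133 (C57BL6/J) and 1489 (BALBc/J) GRO-Seq exon tags per 10 M after KLA, against 5.84 and 6.21 without treatment, a change of 6.35 ± 0.33. Tnf had 3750 and 3498 after KLA, against 211 and 165, a change of 4.21 ± 0.27. Its promoter locus at -134 bp had 921 and 1029 p65 tags in C57BL6/J and 750.2 and 733 in BALBc/J, and 99 and 95.2 PU.1 tags. RNA-Seq called 5 of the 6 higher at 1 hr, the exception being the chemokine gene Ccl5 at 1.11 ± 0.32, and the RNA-Seq call of Gbp5 was lost without 3 of the 4 libraries in turn. The largest falls of this class were at Fbxo32, a ubiquitin ligase gene (-4.25 ± 0.34), Arhgap19, A930001N09Rik and a gene the files list as 1-Mar, a spreadsheet form that matched Marchf1 in RefSeq.

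With p65 alone at the promoter the largest rises were of Irg1, Cxcl1, Socs3, Csrnp1, Oasl1 and Cxcl3. Irg1 had 1969 and 1616 GRO-Seq tags after KLA in C57BL6/J and BALBc/J, against 29.2 and 13.9 without treatment, a change of 5.87 ± 0.31. Its promoter locus, at -90 bp, had 714 and 904 p65 tags in C57BL6/J and 793 and 883 in BALBc/J. Cxcl1, a neutrophil-attracting chemokine, had 504 and 1274 after KLA and 20.6 and 25.5 without treatment, a change of 4.62 ± 0.33, and rose by 7.31 ± 0.20 in RNA-Seq. Both genes also had shared loci farther out, 4 for Irg1 and 3 for Cxcl1. Socs3, a brake on cytokine signalling, rose by 4.07 ± 0.32 and the nuclear protein gene Csrnp1 by 3.46 ± 0.32. Oasl1, an interferon-inducible gene, was called in GRO-Seq (3.14 ± 0.34) but not in RNA-Seq (1.80 ± 0.59). Among the largest falls of this class were those of Gpr146, a receptor gene that also had a PU.1 locus at 326 bp with p65 peaks in 3 of the 4 lists (-3.25 ± 0.36), Apobec1, an RNA-editing enzyme gene (-2.30 ± 0.31), and D830046C22Rik (-2.25 ± 0.27), which ends 612 bp from Gpr146 on the same strand.

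With PU.1 alone at the promoter the largest rises were of Icosl, Icam4, Col27a1, Met, Hdac1 and Sod2, by 2.29 to 3.40. Icosl, Icam4, Col27a1 and Hdac1 had under 20 GRO-Seq tags per 10 M in both untreated libraries, so the direction of their change is partly built in. Only Sod2 was also called higher in RNA-Seq (1.80 ± 0.18), and it carried the shared locus with 1356 to 2191 p65 tags described above. Met, a receptor tyrosine kinase gene, had 16 p65 loci within reach and Icosl, a ligand of T-cell costimulation, had 4. Icam4 and Hdac1 had none, but lay 575 bp from Icam1 on the same strand (3.44 ± 0.32) and 121 bp from Marcksl1 on the opposite strand (2.71 ± 0.36). Their reads cannot be told apart from those of these neighbours. The falls were of Fam198b, Tifab, Cnr2 and Arhgap25, by -3.09 to -2.89. Cnr2, a cannabinoid receptor gene 514 bp from Fuca1, was the only one of the 4 called lower in RNA-Seq (-1.57 ± 0.19). Fam198b and Cnr2 had under 20 GRO-Seq tags per 10 M in both KLA libraries, as had Arhgap19, A930001N09Rik, 1-Mar, Gpr146 and D830046C22Rik above. The direction of these falls is partly built in too. The RNA-Seq calls of Sod2 and Cnr2 were lost when any 1 of the 4 libraries was left out, with values of 1.74 to 1.87 and -1.71 to -1.43.

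Gene lists ordered by role showed how widely p65 was placed. As background, 6254 of the 9110 genes tested in GRO-Seq had a p65 locus, 3150 had one at the promoter and 5777 had a PU.1 locus at the promoter. All 5 NF-kB subunit genes had a promoter locus of each factor, and 4 were called higher in GRO-Seq, from Rel (1.74) to Nfkb2 (2.56). Rela, the gene of p65 itself, was the exception at 1.00 ± 0.33, and was called with centred libraries (1.35). All 14 genes of inhibitors and feedback had p65 loci, 11 at the promoter, and 11 of 14 were called higher in GRO-Seq and 10 of 14 in RNA-Seq, with a median GRO-Seq change of 1.78. Nfkbia rose by 3.45 ± 0.29 in GRO-Seq and 5.99 ± 0.17 in RNA-Seq, and its promoter p65 locus had 1128 and 1647 tags in C57BL6/J and 1122 and 1227 in BALBc/J. Tnfaip3, which encodes the deubiquitinase A20, had 17 p65 and 20 PU.1 loci and rose by 2.81 ± 0.26 in GRO-Seq. With any 1 library left out, RNA-Seq called 6 to 8 of the inhibitor and feedback genes and 0 or 1 of the subunit genes, 3 of which were called with all libraries.

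Output genes of the pathway were covered as fully. All 29 cytokine and chemokine genes had p65 loci, 26 at the promoter and 24 with PU.1 there. With no filter on low values GRO-Seq called 26 of the 29 higher. The filter left 24, all of them called higher, but many passed it through the KLA libraries only: 11 were tested, and 11 called, without 1 or the other of these. Without an untreated library 18 (C57BL6/J) and 19 (BALBc/J) of 24 were called. RNA-Seq called 22 of the 29, 18 unfiltered, and 12 or 13 with 1 library left out. All 22 surface and enzyme genes of the inflammatory response had p65 loci, and unfiltered GRO-Seq called 19 of 22 higher. With the filter it called 18 of 20, 14 of the 15 tested without 1 or the other KLA library, and 16 of 20 without either untreated one. RNA-Seq called 15 of 22, and 8 to 11 with 1 library left out. Interferon response genes were less complete: 14 of 18 had a p65 locus, 3 had PU.1 only and 1, Ifit1, had neither within 100 kb. Of these, 10 of 18 were called higher in unfiltered GRO-Seq (10 of 16 with the filter) and 3 of 18 in RNA-Seq at 1 hr. Ifit1 itself rose by 2.99 ± 0.33 in GRO-Seq with no locus of either factor. All 20 immediate early genes had p65 loci, and 9 of 20 were called higher in unfiltered GRO-Seq (9 of 17 with the filter) and 16 of 19 tested in RNA-Seq. Fos and Jun, subunits of AP-1, were called lower in GRO-Seq (-1.09 ± 0.34 and -1.35 ± 0.32) and higher in RNA-Seq (3.93 ± 0.18 and 1.26 ± 0.19), and with centred libraries neither was called lower in GRO-Seq (-0.74 and -0.99). With 1 library left out, 3 to 9 immediate early genes were called higher in GRO-Seq and 11 or 12 in RNA-Seq, without Jun in RNA-Seq. For interferon response genes the counts were 5 to 8 and 1 to 4, where 9 or 10 genes were tested in GRO-Seq without a KLA library and 15 or 16 without an untreated one.

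Genes of the resting macrophage had p65 loci as well. All 31 macrophage identity genes had one, 20 at the promoter and 28 with PU.1 there. In GRO-Seq 2 of 29 tested were called higher and 10 lower, with a median of -0.60, beside 4.31% higher, 15.5% lower and a median of -0.34 over all genes tested. With centred libraries the counts were 4 higher and 8 lower. Cd14, the lipopolysaccharide co-receptor, rose by 1.95 ± 0.33. Tlr4, the receptor that senses KLA, fell by 2.07 on the log2 scale (SE 0.36) although it had 13 p65 loci, and the lineage factor gene Irf8 fell by 1.94 (SE 0.34) with a p65-alone promoter. Sfpi1, the gene of PU.1, had 4 p65 and 7 PU.1 loci and a change of 0.82 ± 0.33 that was not called, but 1.17 and called with centred libraries. The call of Tlr4 was lost without the untreated BALBc/J library (-1.89). Of 20 lysosome genes 18 had a p65 locus, 0 were called higher and 8 were called lower in GRO-Seq, 5 of 20 with centred libraries and 3 to 12 with 1 library left out, Lipa by -2.47 ± 0.28. Of 10 reference genes 6 had a p65 locus, 9 had PU.1 at the promoter, and none was called in either assay.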

How the data were processed

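The deposited ChIP-Seq lists hold peaks of 200 bp with a coverage signal, the normalized tag count per 10 M mapped tags, that the authors' HOMER run made on mm9, per the file headers. PU.1 lists were called in factor style with an input of their strain, p65 lists without that style, and all 4 p65 lists with the C57BL6/J input. The p65 headers name tag directories rep2 and rep3 where the labels say replicates 1 and 2. Reads were aligned with Bowtie 0.12.7, per the submitters' processing notes. The deposited expression table holds log2 values of exon tags per 10 M, per the file headers, in which whole tags were found on undoing the log. GRO-Seq libraries had 3.07 to 4.34 M exon tags and RNA-Seq libraries 15.1 to 18.4 M.

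Peaks were joined into loci and assigned to the nearest of 28928 starts in that table. Changes were fitted with limma 3.58.1 in R 4.3.3 (trend, strain as a term, Benjamini-Hochberg over all features), for genes with 20 tags per 10 M in at least 2 libraries and a pseudocount of 10, so folds of low genes are understated. The RNA-Seq fit includes the 4 hr libraries. Each condition has 1 library per strain. Expression fits with 1 library left out had no strain term, so a call lost there cannot be assigned to that library alone. A call needs an adjusted p under 0.05 and a log2 difference of at least 1. Lists were compared with exact permutation tests. The fits were checked on simulated data. RefSeq promoters (GRCm38.p6) gave the motifs, for 14637 of 22865 genes with 1 start in both tables; mm9 coordinates were not converted.

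The members and gene lists were chosen with earlier results of these data known. Text names the 8 shared loci with the largest balance each way, the 6 largest GRO-Seq rises and 4 largest falls of each promoter class, the 5 loci with the most tags in each class, and list members; 1 gene that this rule names is not reported here.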

Additional observations from a re-analysis of the deposited data

Results flagged for a closer look

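Of 37 groups of 4 p65 values examined, 2 held a list that stood apart from the other 3, both at named loci. Most groups were tags at a named locus, and the rest were summaries of the whole lists, such as the number of peaks. Chance alone gives about 1 in 20. At the 1810053B23Rik locus, one of those towards PU.1, the first BALBc/J replicate had 21.0 p65 tags per 10 M, above 11.3 in the other BALBc/J list and 10.4 and 10.3 in the C57BL6/J lists. The lowest values listed anywhere in those lists were 10.5, and 10.4 and 10.3, so the other 3 values lie at or near the floor. At the Ptpn1 locus at -7180 bp from the start, shared and strong in PU.1, the second BALBc/J replicate had 147.5 p65 tags, below 229.1 in the other BALBc/J list and 233.1 and 241.6 in the C57BL6/J lists.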

How the results depend on the processing

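Depth and the small number of libraries limit most of the values: each treatment has 1 library per strain in GRO-Seq and RNA-Seq. The lower share of p65 peaks near starts held its sign in every alternative run. The share of genes called higher was larger with a p65 locus than with PU.1 loci only in 13 of 13 settings for each assay (3.31% to 11.1% against 0.462% to 3.43% in GRO-Seq, 0.833% to 3.24% against 0.0804% to 0.251% in RNA-Seq). Of the values of named genes and loci under an alternative, 1436 kept direction and call, 78 lost the call and 7 gained one, and no called value changed direction. For p65 against PU.1, no paired analysis was possible because the PU.1 lists carry no replicate number. The expression fits pair libraries by strain: without that term GRO-Seq called 393 higher and 1410 lower as with it, and RNA-Seq 131 and 47, against 195 and 153 with it.

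With the 20000 strongest peaks of each list there were 14300 p65 and 17168 PU.1 loci, 5509 shared, 7917 p65 alone and 9077 PU.1 alone. Asking for 1 p65 list of each strain gave 23117 p65-alone loci. The shared part of p65 loci was 41.1% with centres within 50 bp, 54.8% within 200 bp, 38.5% with the strongest peaks and 45.8% with 1 list of each strain, and that of PU.1 loci 28.3%, 36.8%, 32.1% and 45.9%. The mean PU.1 tag ratio was 2.26 beyond 1 kb and 2.15 within 200 bp.

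In GRO-Seq a pseudocount of 50 gave 221 higher and 330 lower, and a filter of 100 tags 258 and 468, beside 618 and 645 with centring. The share called higher with a p65 locus was 6.49% at a pseudocount of 2, 3.31% at 50, 3.97% unfiltered (0.462% with PU.1 only), 11.1% with 100 tags (3.43%), 9.10% centred and 5.07% with 1 p65 list of each strain. RNA-Seq calls lower were 39 at a pseudocount of 50, 66 unfiltered, 76 with 100 tags, 78 centred and 47 with no strain term. Its share called higher with a p65 locus was 2.22% at 50, 1.67% unfiltered, 3.24% centred, 1.78% with no strain term and 2.24% with 1 p65 list of each strain. The causes were not tested.

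With 1 library left out GRO-Seq calls were 216 to 351 higher and 148 to 2195 lower, and 3.58% to 5.37% of genes with a p65 locus were higher. Every expression fit with 1 library left out also had no strain term, so its counts cannot be assigned to that library alone. RNA-Seq calls were 62 to 77 higher and 0 to 2 lower in limma, whichever of the 4 libraries was left out, with 0.833% to 1.01% of genes with a p65 locus higher; the fits with 0 lower had 680 and 757 genes at an unadjusted p under 0.05 in either direction. A lone library was assumed to vary like the others. PU.1-alone loci were 24043 to 35854, the highest without the C57BL6/J PU.1 list, and the shared part was 49.3% to 56.9% of p65 and 29.2% to 39.8% of PU.1 loci.

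With overlap counted within 500 bp, untreated PU.1 was at 26.0% of p65-alone, 84.6% of shared and 88.2% of PU.1-alone loci. C/EBPa after KLA was at 58.3%, 74.0% and 23.9% of these and without treatment at 35.9%, 64.1% and 26.7%. H3K27Ac was at 45.7%, 64.3% and 34.7% after KLA and at 39.6%, 61.3% and 37.6% without treatment. With the locus centre in the promoter window the kB consensus was in 16.1% of p65-alone and 9.62% of shared promoters, the PU.1 core in 4.40% of p65-alone, 21.2% of shared and 16.5% of PU.1-alone ones, and AP-1 in 9.85% of shared ones and 8.19% of those with no locus. In the 250 bases before the start the kB consensus was in 4.05% of all promoters, the PU.1 core in 13.9% of shared, 8.84% of PU.1-alone, 6.47% with no locus and 7.61% of all, and AP-1 in 8.29% with no locus and 6.49% of all.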
